A study of Homo sapiens with 4 samples.

Results

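The cytochrome P450 genes were taken as the protein-coding genes whose symbol is CYP followed by a digit, letters and a digit, from CYP1A1 to CYP51A1. They number 55 of the 19951 protein-coding genes of the reference annotation. By the substrates their families are known for, 23 belong to families 1 to 3, which act mainly on drugs and other foreign compounds, 12 to the fatty acid family 4, and 20 to the families of steroids, bile acids and vitamins. The last class takes in every remaining family, and so also CYP20A1, whose substrate is not established. RNA came from HepG2 and Huh7, both established human liver cancer cell lines, before treatment (HepG2, group A; Huh7, group C) and after it (HepG2, group B; Huh7, group D). The treatment was sonodynamic therapy, SDT, in which low-frequency ultrasound activates a sensitizer inside the cell. The sensitizer HMME was carried in targeted nanobubbles together with lonidamine, LND, an inhibitor of tumor energy metabolism, so the effects of nanobubble, HMME, LND and ultrasound cannot be told apart. Each group was 1 library, so no listing below has a replicate check. The tables hold no expression levels, so the cell lines were not checked against marker genes here.

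P450 enzymes bind a heme iron through a conserved cysteine and use it to insert 1 oxygen atom into a substrate. Most sit in the membrane of the endoplasmic reticulum and take electrons from the reductase POR, whereas a smaller number work in mitochondria with ferredoxin. Hepatocytes are their main site for clearing drugs and for turning cholesterol into bile acids, and many of these genes are known to be expressed at lower levels in liver cancer lines than in liver. The values here are listings. A gene was listed when the authors called its mRNA different between the libraries of a comparison and entered it under any Gene Ontology, GO, term of their table. Whether a listed gene was higher or lower after treatment, and by how much, was not analysed here, and a gene that was not listed may have been unchanged, not expressed or too low to be called.

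Of the 55 P450 genes, 14 (25.5%) were listed when HepG2 groups B and A were compared (B vs. A) and 15 (27.3%) when Huh7 groups D and C were (D vs. C). The share of all protein-coding genes listed was 23.9% in B vs. A and 21.9% in D vs. C, so as a whole the P450 genes were listed about as often as other genes. Both comparisons listed 7 P450 genes (12.7%, beside 11.4% of all protein-coding genes). These were 50% of the P450 genes listed in HepG2 and 46.7% of those listed in Huh7. Among all protein-coding genes the corresponding shares were 47.7% and 52.2%. At least 1 comparison listed 22 (40.0%, beside 34.3% of all), and 33 were listed in neither. The 2 comparisons share no library.

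**Figure D1:**
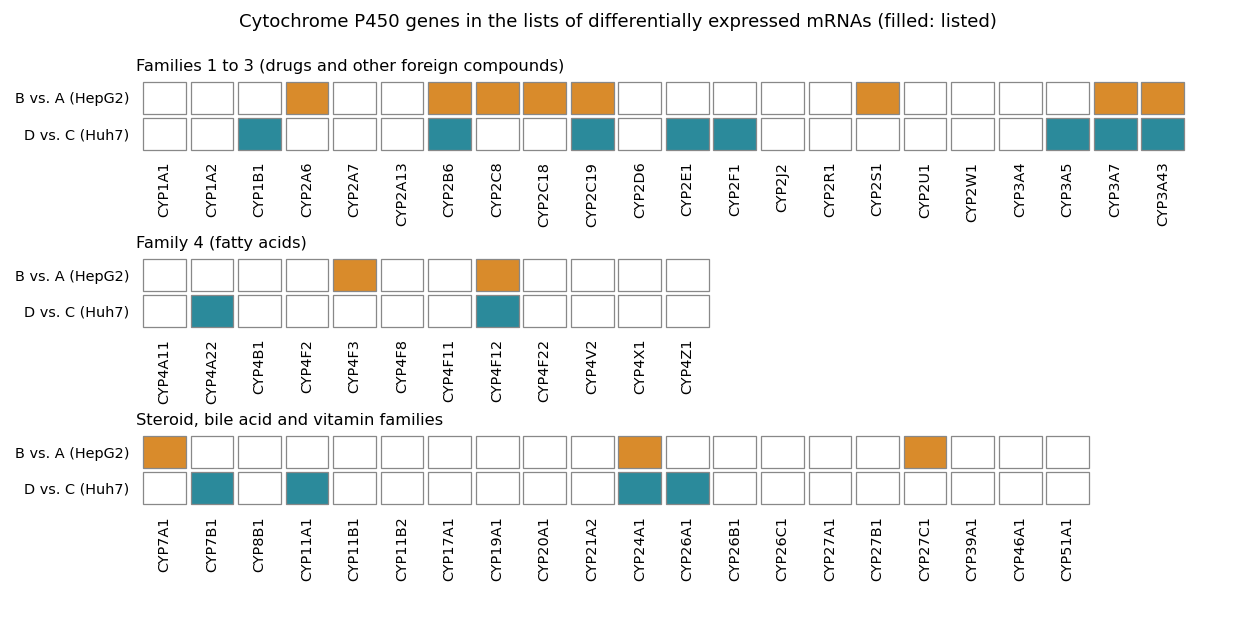
Each column is a P450 gene (54 are shown), in the order of its family, and each row 1 comparison. A filled box marks a gene listed as differentially expressed (orange, B vs. A in HepG2; blue, D vs. C in Huh7), and 6 of the columns shown are filled in both rows.

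Among the genes listed in both lines were CYP2B6 (ENSG00000197408), CYP2C19 (ENSG00000165841), CYP3A7 (ENSG00000160870), CYP3A43 (ENSG00000021461), CYP4F12 (ENSG00000186204) and CYP24A1 (ENSG00000019186). CYP2C19 acts on proton pump inhibitors and activates clopidogrel, whereas CYP2B6 oxidizes bupropion and cyclophosphamide. CYP3A7 is the main CYP3A form of the fetal liver. CYP3A43 is a CYP3A enzyme whose own substrates are little known. CYP4F12 hydroxylates fatty acids, and CYP24A1 starts the breakdown of active vitamin D. The last has no close relative among the P450 enzymes, since its nearest, CYP27B1, was 31.2% identical in protein sequence.

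Several of the listed genes stand beside genes of similar sequence. The stretch of 87 coding bases around the heme-binding cysteine is shown for the CYP3A genes because the listings within this subfamily differ between genes of almost the same sequence. In the first line the capitals mark the codon of the cysteine. In the other lines they mark the bases that differ from the first line. All were read 5′ to 3′ from the coding sequences of GENCODE release 29.

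CYP3A7: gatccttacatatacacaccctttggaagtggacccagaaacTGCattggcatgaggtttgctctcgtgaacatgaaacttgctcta
CYP3A4: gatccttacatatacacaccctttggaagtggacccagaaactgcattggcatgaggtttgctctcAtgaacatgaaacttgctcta
CYP3A5: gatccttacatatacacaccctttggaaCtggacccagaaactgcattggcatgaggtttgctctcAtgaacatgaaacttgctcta
CYP3A43: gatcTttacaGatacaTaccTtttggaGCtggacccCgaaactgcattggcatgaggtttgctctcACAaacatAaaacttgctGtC

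Within this stretch CYP3A4 differed from CYP3A7 at 1 base, CYP3A5 at 2 and CYP3A43 at 13. CYP3A7 was listed in both lines and CYP3A4 in neither, although the whole proteins were 88.5% identical.

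Families 1 to 3 held most of the listed P450 genes. Of their 23 genes, 9 (39.1%) were listed in B vs. A, 9 (39.1%) in D vs. C, and 5 (21.7%) in both, while 10 were listed in neither. The corresponding shares were 16.7%, 16.7% and 8.3% of the 12 genes of family 4, and 15.0%, 20% and 5.0% of the 20 genes of the steroid, bile acid and vitamin families. These shares were not tested against each other, since the tables hold no value per library and genes are not replicates. The shares of families 1 to 3 were lower without near copies. With the genes left out whose protein was over 80% identical to that of another P450 gene, 4 of 14 (28.6%) were listed in B vs. A, 5 of 14 (35.7%) in D vs. C, and 2 (14.3%) in both.

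**Figure D2:**
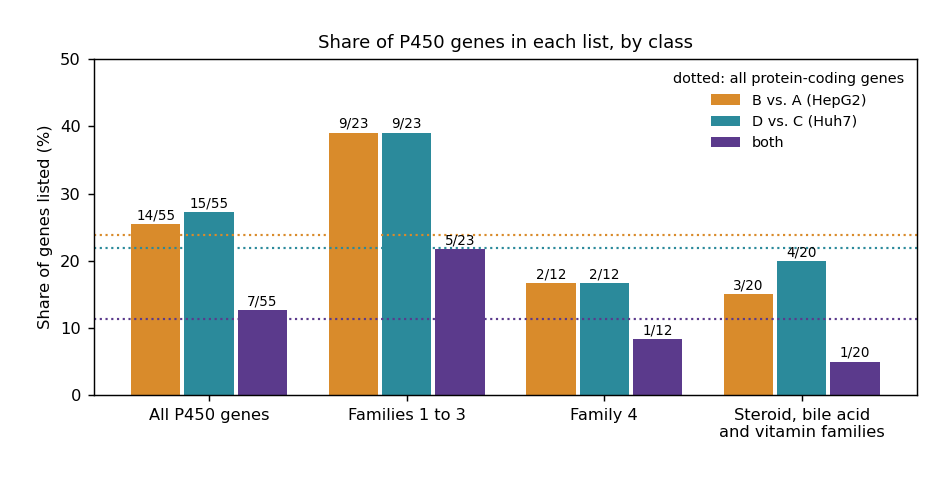
Bars give the share of P450 genes listed in B vs. A, D vs. C and both, in percent of the genes of each class, with the counts above them. Dotted lines give the share of all protein-coding genes (23.9%, 21.9% and 11.4% for B vs. A, D vs. C and both), and only the bars of families 1 to 3 stand well above their lines.

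In family 1, whose enzymes oxidize polycyclic aromatic hydrocarbons, CYP1B1 was listed in D vs. C. CYP1A1 and CYP1A2, the usual targets of the aryl hydrocarbon receptor, were listed in neither line. The genes of the receptor itself (AHR), of its partner (ARNT) and of its repressor (AHRR) were also in neither list. Of the listed P450 genes, CYP1B1 stood under the most GO terms, 282, and under 6 pathways.

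In family 2, 7 of 16 genes (43.8%) were listed in B vs. A and 5 (31.2%) in D vs. C. The shares of all protein-coding genes were 23.9% and 21.9%, and the difference was not tested. CYP2B6 and CYP2C19 were among those listed in both lines. CYP2C8, which clears paclitaxel, and CYP2C18, an enzyme mostly found outside the liver, were listed in HepG2 alone. CYP2A6, the nicotine and coumarin hydroxylase, and CYP2S1, an enzyme of epithelia, were likewise listed in HepG2 alone. CYP2E1, which oxidizes ethanol and paracetamol, and CYP2F1, an enzyme of the lung, were listed in Huh7 alone. The other 7 genes of the family were in neither list, namely CYP2A7, CYP2A13, CYP2D6, CYP2J2, CYP2R1, CYP2U1 and CYP2W1. Among them are CYP2D6, which acts on many psychiatric and cardiac drugs, and CYP2R1, the liver enzyme that hydroxylates vitamin D at carbon 25.

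In family 3, CYP3A7 and CYP3A43 were listed in both lines and CYP3A5 in Huh7 alone. CYP3A4, the main drug-metabolizing enzyme of the adult liver, was in neither list.

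In family 4, whose enzymes hydroxylate fatty acids and eicosanoids at or near the end of the chain, CYP4F12 was listed in both lines. CYP4F3, which inactivates leukotriene B4, was listed in HepG2 alone. CYP4A22 was listed in Huh7 alone, while CYP4A11, which is 94.8% identical to it in protein sequence, was in neither list. The remaining genes in neither list were CYP4B1, CYP4F2, CYP4F8, CYP4F11, CYP4F22, CYP4V2, CYP4X1 and CYP4Z1. None of the 5 family 4 genes without a near copy was listed, and 5 genes are too few to compare. At least 1 line listed 34.3% of all protein-coding genes.

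In the steroid, bile acid and vitamin families, 6 of 20 genes (30%) were listed in at least 1 line, beside 34.3% of all protein-coding genes. Of the 6 enzymes of steroid hormone synthesis, CYP11A1, which cleaves the side chain of cholesterol, was listed in Huh7 alone, and CYP11B1, CYP11B2, CYP17A1, CYP19A1 and CYP21A2 were in neither list. Of the 7 enzymes of cholesterol and bile acid metabolism, each line listed a single one (14.3%), and not the same one. The shares of all protein-coding genes were 23.9% in HepG2, 21.9% in Huh7 and 11.4% in both, and 7 genes are too few to compare. CYP7A1, the rate-limiting enzyme of the classic bile acid pathway, was listed in HepG2, and CYP7B1, the oxysterol 7-alpha-hydroxylase of the alternative pathway, in Huh7. CYP8B1, CYP27A1, CYP39A1, CYP46A1 and the lanosterol demethylase gene CYP51A1 were in neither list.

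For the vitamins, CYP24A1 was listed in both lines, whereas CYP27B1, which makes active vitamin D, and the vitamin D receptor gene VDR were in neither list. Of the 4 retinoid enzymes, CYP27C1, a retinoid desaturase, was listed in HepG2 alone, and CYP26A1, which clears retinoic acid, in Huh7 alone. CYP26B1 and CYP26C1 were in neither list, and neither was CYP20A1, whose substrate is not established.

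Many P450 genes lie beside each other as tandem copies. Joining P450 genes whose starts lie within 1000 kb of each other gave 8 groups with 32 genes, of which 16 (50%) were listed in at least 1 line, and 6 of the 23 genes standing alone (26.1%) were, beside 34.3% of all protein-coding genes. Grouping and class go together, since the groups hold all CYP2A, CYP2C and CYP3A genes, as well as all CYP4A and CYP4F genes. Neither the difference nor the part of class in it was tested. On chromosome 7, CYP3A4, in neither list, lies between CYP3A7 and CYP3A43, each listed in both lines. The 6 genes CYP2A6, CYP2A7, CYP2B6, CYP2A13, CYP2F1 and CYP2S1 of chromosome 19 held every kind of listing. In the family 4 group of chromosome 1, a single gene of 5, CYP4A22 at its end, was listed.

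**Figure D3:**
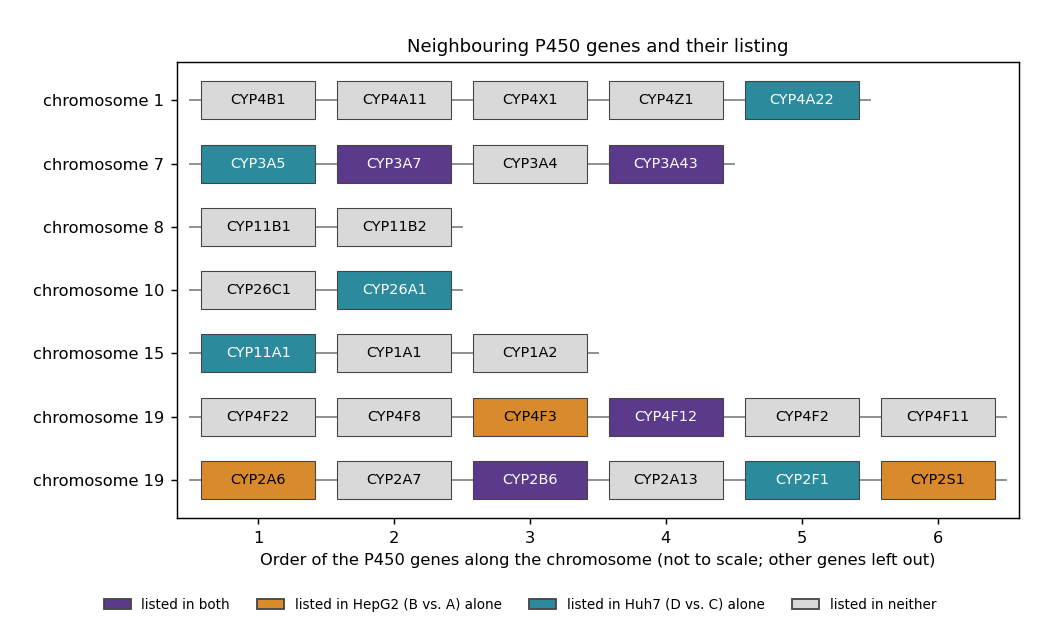
Each row is 1 of 7 groups of neighbouring P450 genes in their order along the chromosome, coloured by listing (purple, both lines; orange, HepG2 alone; blue, Huh7 alone; grey, neither). On chromosome 7, 3 of the 4 CYP3A genes are coloured, and the pair on chromosome 8 is grey.

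How far a gene's own reads can be told from those of other genes was computed from the GENCODE transcripts as the share of its stretches of 75 bases that occur in the transcripts of no other gene. For 27 of the 55 P450 genes this share was 100%, and for 10 it was under 80%. The median was 98.3% for the 7 genes listed in both lines and 100% for the 33 in neither list. CYP3A7 had the lowest share of the listed genes, 61.3%, because 38.2% of its stretches also occur in the readthrough gene CYP3A7-CYP3A51P, which was itself listed in D vs. C. For CYP2C19 (64.0%) and CYP2C18 (64.5%), 35.5% of the stretches of each occur in AL583836.1, a gene model that overlaps both.

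Other genes shared stretches with P450 genes. CYP4A22 had 74.8% of unique stretches and shared 25.2% with CYP4A11, and CYP2A6 had 81.7% and shared 15.5% with CYP2A7. CYP26A1 (77.7%) shared 22.3% with the overlapping model AL358613.3. The listings of these 6 genes are uncertain, because how the authors assigned shared reads is not given in the sources used here. The shares hold for stretches of 75 bases in GENCODE release 29, and may differ for the authors' reads and annotation. CYP3A4, in neither list, had 97.6% of unique stretches. CYP51A1 had the lowest share of all, 22.5%. The median longest transcript was 2634 bases for the genes listed in both lines, 2782 for those of HepG2 alone, 2390 for those of Huh7 alone and 2566 for those in neither list. The part of length in the listings was not tested.

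**Figure D4:**
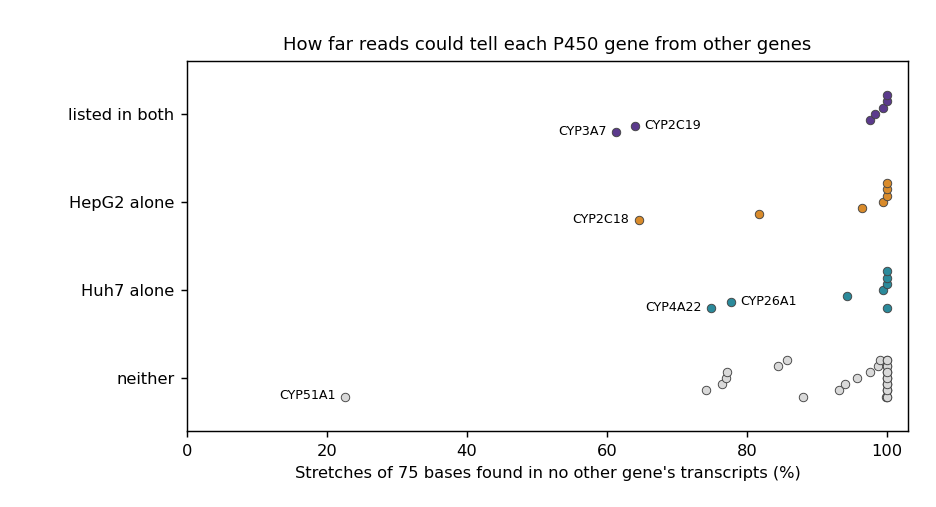
Each point is a P450 gene, placed by the share of its 75-base stretches found in no other gene's transcripts (in percent) and grouped by listing. Most points lie near 100%. Of the listed genes, CYP3A7, CYP2C19, CYP2C18, CYP4A22 and CYP26A1 lie under 80%.

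Every listed P450 gene stood under the GO terms for heme binding, iron ion binding and monooxygenase activity, which describe the shared chemistry. Of the 22148 genes of the authors' GO background, 21.6% were listed in B vs. A and 19.7% in D vs. C. Heme binding had 46 listed genes of 161 in B vs. A and 43 in D vs. C, of which 14 and 15 were P450 genes. Monooxygenase activity had 26 listed genes of 120 in B vs. A and 35 in D vs. C. The P450 genes made up 14 and 15 of these, and other genes 12 and 20. Here and below, other genes are those outside the 55, and may include P450 genes whose symbol does not meet the rule. By location, 12 and 13 of the listed P450 genes were under endoplasmic reticulum membrane, and a single one, CYP11A1 in D vs. C, under mitochondrial inner membrane.

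Narrow terms for the oxidation of fatty acids and steroids listed few genes other than P450 genes. These terms describe mainly P450 reactions, so this follows from how they are annotated and is not a result of the lists. Arachidonic acid epoxygenase activity, the formation of signaling epoxides from a membrane fatty acid, had 8 listed genes of 16 (50%) in B vs. A and 6 (37.5%) in D vs. C, every one a P450 gene. In HepG2 these included CYP2A6, CYP2B6, CYP2C8, CYP2C18, CYP2C19, CYP2S1 and CYP4F12. In Huh7 they included CYP2B6, CYP2C19, CYP2E1, CYP2F1 and CYP4F12. Steroid hydroxylase activity had 9 listed genes of 41 (22%) in each comparison, with 9 and 8 P450 genes among them. Drug metabolic process, which is not a term of this kind, had 10 listed genes of 46 (21.7%) in B vs. A, 8 of them P450 genes. In D vs. C it had 13 (28.3%), of which 7 were P450 genes and 6 were others.

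Broader terms held more genes of other families. Xenobiotic metabolic process had 26 listed genes of 112 (23.2%) in B vs. A and 43 (38.4%) in D vs. C. Of these, 8 and 9 were P450 genes, and 18 and 34 were others. Steroid metabolic process had 81 listed genes of 343 (23.6%) in B vs. A and 105 (30.6%) in D vs. C, with 8 and 11 P450 genes. Vitamin D metabolic process had 3 listed genes of 27 in B vs. A and 6 in D vs. C, CYP24A1 in both and CYP11A1 in the latter. Retinoic acid metabolic process had 4 listed genes of 22 in B vs. A and 6 in D vs. C, where the P450 gene was CYP27C1 in HepG2 and CYP26A1 in Huh7.

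The KEGG pathways in which P450 enzymes take part were counted in the same way. The listed share of all KEGG background genes was not computed, so the shares of single pathways below have no baseline. Of 16 such pathways, 14 had more listed genes in D vs. C than in B vs. A, 1 had as many and 1 fewer, although the whole KEGG list was shorter in D vs. C (1636 genes) than in B vs. A (1693 genes). The number of P450 genes was higher in D vs. C in 4 pathways and lower in 6, and the number of other genes was higher in D vs. C in 15. The pathways share genes, so they do not count as separate observations, and the difference between the lines was not tested. Counted once each, the listed genes of the 16 pathways were 130 in B vs. A and 158 in D vs. C, of which 12 and 13 were P450 genes.

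Steroid hormone biosynthesis had 14 listed genes of 57 (24.6%) in B vs. A and 25 (43.9%) in D vs. C. Its P450 genes were CYP3A7 and CYP7A1 in HepG2, and CYP1B1, CYP2E1, CYP3A5, CYP3A7, CYP7B1 and CYP11A1 in Huh7. Drug metabolism - cytochrome P450 had 21 of 68 (30.9%) and 25 (36.8%), with 5 P450 genes in each. In HepG2 these included CYP2A6, CYP2B6, CYP2C8 and CYP2C19, and in Huh7 CYP2E1 and CYP3A5 stood in place of CYP2A6 and CYP2C8. Metabolism of xenobiotics by cytochrome P450 had 19 of 74 (25.7%) with 4 P450 genes in HepG2, and 28 (37.8%) with 6 in Huh7.

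Retinol metabolism had 22 of 64 (34.4%) and 24 (37.5%), with 7 and 5 P450 genes. Primary bile acid biosynthesis had 3 of 17 and 6, with CYP7A1 in the former and CYP7B1 in the latter. Drug metabolism - other enzymes, which covers steps after or beside P450 oxidation, had 9 of 46 (19.6%) in HepG2 with CYP2A6 the single P450 gene, and 19 (41.3%) in Huh7 with none. CYP4F12 was listed in both lines and in none of the 16 pathways.

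**Figure D5:**
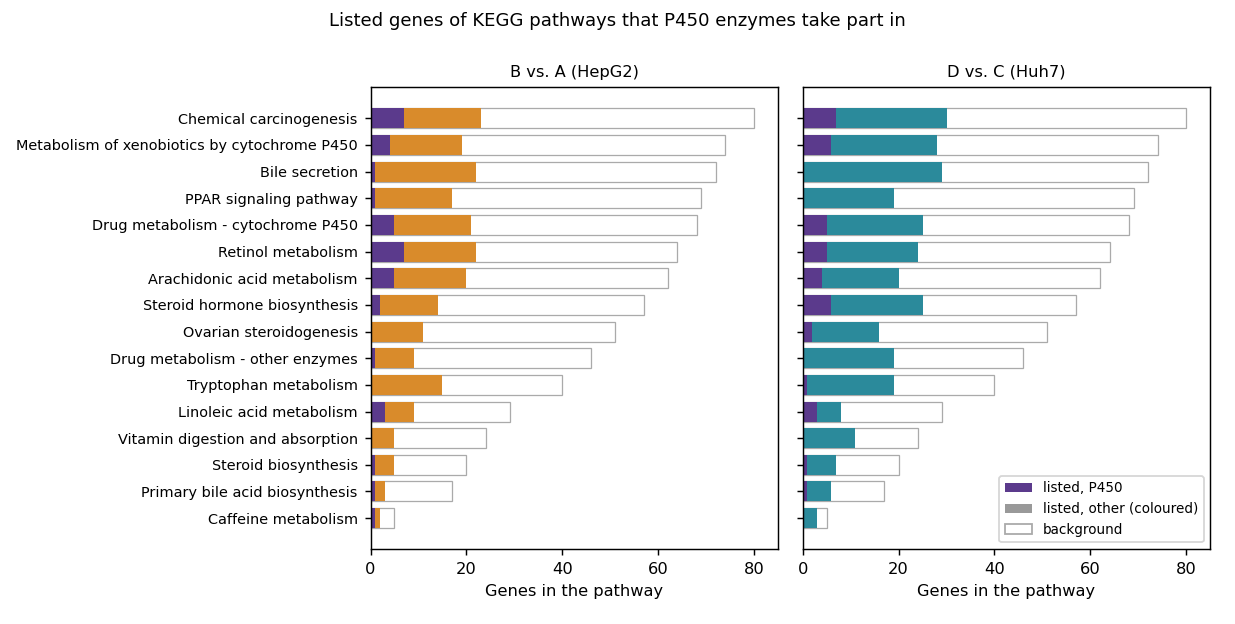
Bars give, for 16 KEGG pathways, the number of listed P450 genes (purple), other listed genes (orange, B vs. A in HepG2; blue, D vs. C in Huh7) and all background genes (outline). The purple parts run from 0 to 7 genes and differ between the sides in 10 of 16 pathways, most in Steroid hormone biosynthesis with 2 against 6, while the coloured parts are longer for D vs. C in 15 of 16 pathways.

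Genes that serve or control P450 enzymes were taken from a list of 37. Of these, 9 (24.3%) were listed in B vs. A, 13 (35.1%) in D vs. C and 6 (16.2%) in both, beside 23.9%, 21.9% and 11.4% of all protein-coding genes. Neither list held the remaining 21. The share in B vs. A was thus about that of all genes. Among 7 electron donor genes, the cytochrome b5 gene CYB5A was listed in both lines and POR in Huh7 alone. The genes of the mitochondrial chain, FDX1, FDX2 and FDXR, were in neither list. HMOX1, which breaks heme down, was listed in both lines, while ALAS1, the first step of heme synthesis in the liver, was in neither list. PGRMC2, a heme-binding membrane protein, was listed in HepG2 alone. Of the flavin monooxygenases, which oxidize drugs without heme, FMO4 was listed in both lines and FMO1 in Huh7 alone. The epoxide hydrolase gene EPHX2, whose enzyme hydrolyzes the fatty acid epoxides made by P450 enzymes, was listed in Huh7 alone.

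Of 18 receptor and transcription factor genes, 5 (27.8%) were listed in B vs. A, near the share of all genes, and 7 (38.9%) in D vs. C. Those listed in both lines were HNF4A, a main factor of hepatocyte genes, NR1H4, the bile acid receptor FXR, and RARA, a retinoic acid receptor. PPARA, a receptor for fatty acids, and RARB were listed in HepG2 alone. NR1I3, the drug-sensing receptor CAR, was listed in Huh7 alone, as were NR0B2, the repressor SHP that acts on CYP7A1, and NR5A1 and NR5A2. NR1I2, the drug-sensing receptor PXR, and RXRA, the partner of some but not all of these receptors, were in neither list.

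Several of these receptors bind repeats of a short core sequence. The bases AGNTCA were searched on both strands in a window from 250 bases before to 50 after each start of RefSeq promoters (GRCh38.p14). They were taken as direct repeats with 1, 3, 4 or 5 bases between them (DR1, DR3, DR4, DR5). An everted repeat with 6 (ER6, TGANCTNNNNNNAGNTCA) was searched as well. Of the 55 P450 genes, 39 had a promoter in the table, with 52 starts in all. The ER6 stood before CYP3A4 and CYP3A5, and in 0.0427% of 35116 promoters of all genes. The DR5 (AGNTCANNNNNAGNTCA) stood before CYP26A1, and in 0.0797% of all promoters. DR1, DR3 and DR4 occurred in none of the 52 windows. The 16 P450 genes without a promoter in the table were not searched. They include the listed genes CYP1B1, CYP2C18, CYP2F1, CYP4A22, CYP4F12, CYP7A1, CYP7B1 and CYP24A1. The bases TATAAA, searched on the gene's own strand, occurred in 17 of the 52 windows and in 7.33% of all promoters. The core GCGTG of the aryl hydrocarbon receptor's site occurred in 13 of the 52 windows and in 36.5% of all promoters.

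The upstream part of the windows of the 4 CYP3A genes is shown because these neighbours differ in their listing. Each run holds bases 250 to 91 before the start, 5′ to 3′ in the direction of the gene, with the ER6 in capitals.

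CYP3A4 promoter, chr7:99784275-99784434, strand minus: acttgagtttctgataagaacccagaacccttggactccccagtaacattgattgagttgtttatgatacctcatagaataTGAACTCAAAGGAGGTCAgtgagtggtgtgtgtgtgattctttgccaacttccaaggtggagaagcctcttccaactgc
CYP3A5 promoter, chr7:99680087-99680246, strand minus: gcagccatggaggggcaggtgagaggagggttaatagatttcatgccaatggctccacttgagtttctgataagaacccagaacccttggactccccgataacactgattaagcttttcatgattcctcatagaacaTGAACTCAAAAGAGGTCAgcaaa
CYP3A7 promoter, chr7:99735287-99735446, strand minus: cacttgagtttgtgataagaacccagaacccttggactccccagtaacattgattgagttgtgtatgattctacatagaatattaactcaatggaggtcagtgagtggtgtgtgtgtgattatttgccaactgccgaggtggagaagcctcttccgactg
CYP3A43 promoter, chr7:99827763-99827922, strand plus: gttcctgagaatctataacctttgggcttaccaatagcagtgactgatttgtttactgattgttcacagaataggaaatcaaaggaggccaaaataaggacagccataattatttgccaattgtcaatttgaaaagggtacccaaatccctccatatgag

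The ER6 lies at bases 169 to 152 before the start of CYP3A4 and at bases 113 to 96 before that of CYP3A5. CYP3A4 was in neither list and CYP3A5 was listed in Huh7. The windows of CYP3A7 and CYP3A43, both listed in HepG2 and Huh7, had no match of these letters. The DR5 lies at bases 90 to 74 before 1 of the starts of CYP26A1. A match is a description of letters, and whether any receptor occupied these sites was not measured.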

How the data were processed

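Total RNA of 4 groups (HepG2 before, A, and after, B; Huh7 before, C, and after, D; 1 library each) was depleted of ribosomal RNA and sequenced in a strand-specific way. The submitters' processing notes name HISAT2, StringTie 1.3.1, Bowtie2 2.2.8 and Cuffdiff 2.1.1; the paper's methods give FPKM values from Cuffdiff and calls at an adjusted p-value under 0.05, whereas its results name edgeR. The genome build and annotation are not given in the sources used here. The authors deposited 4 tables, a GO table (GOseq) and a KEGG table (KOBAS) for each of 2 comparisons, with the counts of listed and background genes and the listed identifiers. These counts are numbers of genes and not of reads. Their enrichment p-value columns were not used.

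A gene was listed when its Ensembl identifier stood under any GO term. Identifiers were matched to GENCODE release 29 with Python 3.11.15. No test was run, since each group is 1 library and the tables hold no value per library. The depth of the libraries was not used here. Protein identity came from pairwise alignment of translated GENCODE coding sequences (Biopython 1.88). Gene order and promoters came from RefSeq. Figures were drawn with matplotlib 3.10.9. P450 genes are named by their listing within their class, and of the partner genes all listed ones are named. 1 P450 gene is counted but not reported by name here. The members, gene lists, terms and pathways were chosen with earlier results of these data known. How the counts of P450 genes depend on what counts as listed and on which genes are members is given at the end.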

Additional observations from a re-analysis of the deposited data

How the results depend on the processing

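The counts of P450 genes listed were 14 in B vs. A, 15 in D vs. C and 7 in both. These counts and the shares of all genes listed were recomputed in 17 alternatives, and 14 stayed within 1.5 times. These took the KEGG tables together with the GO tables (14, 15 and 7), biological process terms alone (14, 15 and 7), the P450 genes without a CYP symbol, TBXAS1 and PTGIS, as members (15, 16 and 7 of 57), the KEGG tables alone, which was chosen after seeing the data (12, 14 and 6), and for the share of all genes listed the 22148 genes of the authors' GO background (21.6% and 19.7%). The biological process alternative could not change the counts, since every listed P450 gene stood under the term biological process. Adding TBXAS1 and PTGIS could not move any count beyond 1.5 times. The authors' background changed mainly the number of genes that the shares were taken of. That these alternatives stayed within 1.5 times therefore says little. The counts moved when the 18 genes whose protein was over 80% identical to that of another member were left out. Of the 37 genes kept, 7 (18.9%) were listed in B vs. A, 9 (24.3%) in D vs. C and 3 (8.1%) in both; fewer genes were then counted. No paired analysis was possible because each group is 1 library and the result comes from no test. Leaving out a replicate was not possible for the same reason. A gene listed by the authors has no replicate error, and library depth, which limits which low genes could be called, was not used here.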

Other observations

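A pair of P450 genes have no CYP symbol and were not counted as P450 genes in the Results. TBXAS1, the thromboxane synthase, was listed in B vs. A alone, and PTGIS, the prostacyclin synthase, in D vs. C alone.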
